A study of Homo sapiens with 2 samples.

Results

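The cells described here are the doxycycline-treated SK-N-BE(2)-C neuroblastoma cells in which vimentin mRNA stayed at or below the 95th percentile of untreated cells. SK-N-BE(2)-C is an established human neuroblastoma line, and the derivative used here (SK-N-BE(2)-C-pIND-HRASV12) carries an inducible HRASV12, an activated form of the small GTPase HRAS. One culture received 100 ng/ml doxycycline for 13 days (induced) and the other was left untreated for the same 13 days (control). Both cultures are of the same inducible line, so doxycycline itself and HRASV12 cannot be told apart from each other in this design, and no line without the construct was analysed here. Each group is 1 library of polyA RNA from single cells (10x Genomics Chromium 3' v3.1), so no difference between the libraries has a replicate check and no p-value is given. The intervals below are 95% intervals. Those of ratios cover counting error only, those of shares treat cells as independent draws, and those of list medians treat genes as independent. None covers variation between cultures.

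An induced cell was taken as low-vimentin when its VIM level, in counts per 1000000 counts of that cell (CPM), was at or below 897 CPM, the 95th percentile of the control cells. This rule kept 295 of 666 induced cells, which is 44.3% (exact binomial interval 40.5% to 48.2%), out of 1622 cells in both libraries. They are compared with the remaining 371 induced cells (the other induced cells) and with all 956 control cells, of which 908 also lie at or below the limit. The 3 members nearest the limit had 890, 875 and 859 CPM, and the 3 induced cells just above it had 898, 904 and 906 CPM. VIM chose the cells, so its levels are a description, and VIM is left out of every count of genes below.

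Vimentin is an intermediate filament protein typical of mesenchymal cells. Neuroblastoma cells occur in an adrenergic state, with the transcription factors and catecholamine enzymes of the sympathoadrenal lineage, and in a mesenchymal state, with matrix, adhesion and contractile genes. Activated RAS signals through the MAPK cascade, whose output includes dual-specificity phosphatases such as DUSP4 and DUSP6, the ligand HBEGF and the AP-1 subunit FOSL1.

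VIM, which chose the cells, is given as a description. In the low-vimentin cells it ran from 0 to 890 CPM with a median of 198, whereas the control cells had a median of 23.4 CPM and the other induced cells a median of 1868 CPM. VIM lay above the control median in 251 of the 295 cells (85.1%), and 18 of them (6.10%) had no VIM count, against 290 of 956 control cells (30.3%). At an equal depth of 53000 counts per cell the share with no VIM count was 8.10% of 247 low-vimentin cells and 36.4% of 766 control cells. The name therefore describes a position under a limit set by the upper tail of the control cells, and most members lie above the control median.

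**Figure D1:**
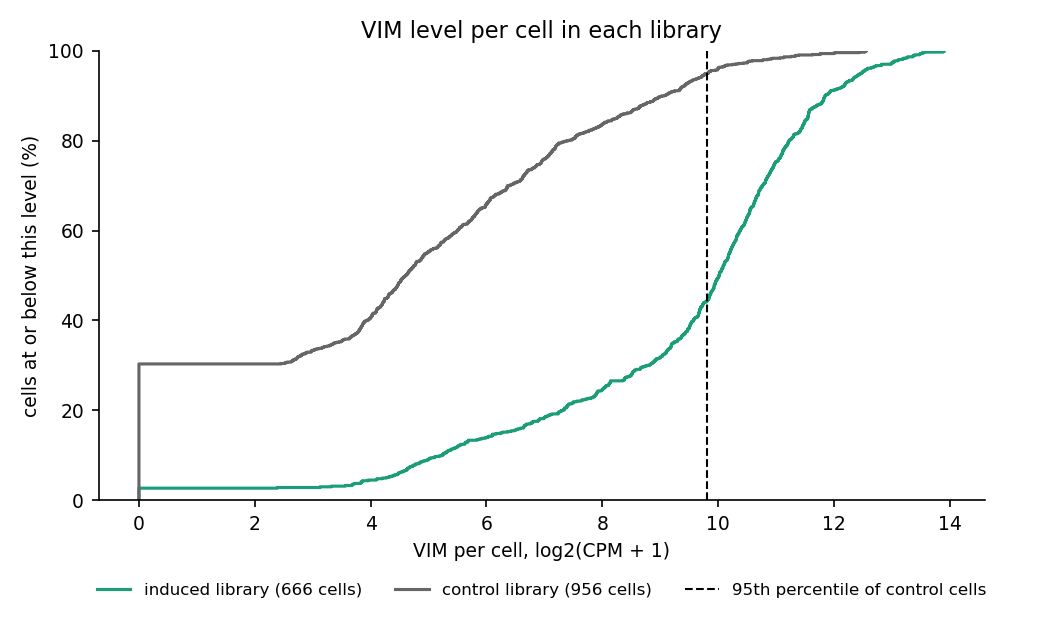
Cumulative share of cells (y axis, percent) at or below each VIM level (x axis, log2(CPM + 1) per cell) in the induced library and in the control library, with the 95th percentile of the control cells as a dashed line. The induced curve crosses that line at 44.3%, and below the line it still lies to the right of the control curve.

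The identity of the cells was checked with sympathoadrenal genes. CHGA, the chromogranin A of secretory granules, was at 750 CPM over the low-vimentin cells, 232 CPM over the other induced cells and 1004 CPM over the control cells. PHOX2A, a homeobox factor of the sympathoadrenal lineage, was at 946, 867 and 701 CPM in the same order. HAND2 (236 CPM), GATA3 (280 CPM), ISL1 (118 CPM) and DBH (101 CPM) were also present in the low-vimentin cells. Markers of other cell types were few. The summed level over the low-vimentin, other induced and control cells was 5.63, 5.05 and 5.97 CPM for 6 immune genes, and 1.99, 1.14 and 1.75 CPM for 4 erythroid genes. It was 38.4, 63.8 and 44.6 CPM for 6 Schwann cell precursor genes, most of it PMP22, and 33.9, 65.9 and 30.9 CPM for 6 epithelial genes. The sum of 10 endothelial genes was 39.8 CPM in the low-vimentin cells, 115 in the other induced cells and 107 in the control cells. EGFL7 made up 32.9 of the 39.8 CPM in the low-vimentin cells, where PECAM1 was at 2.98, ESAM at 1.78 and ENG at 1.51 CPM. KDR had no count there, and CDH5 and VWF were at 0.15 CPM each. The fibroblast and pericyte list summed to 3247, 3853 and 2595 CPM, nearly all of it the pericyte gene RGS5. Next in the low-vimentin cells were LUM at 14.5 and PDGFRB at 9.07 CPM, with 18.5 and 16.3 CPM in control. PDGFRA was at 0.36 and COL1A1 at 0.99 CPM in the low-vimentin cells.

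The low-vimentin cells held 33186482 counts in all, with a median of 108151 per cell, against 114298 in the other induced and 85821 in the control cells. Their mitochondrial share had a median of 11.7% (10.4% in the other induced, 13.2% in the control cells), and nuclear MALAT1 had a median of 2819 CPM (1373 and 3145 CPM). Cells below the control 5th percentile of either measure made up 27.8% of the low-vimentin cells, 48.0% of the other induced and 8.89% of the control cells. These signs of RNA quality therefore differed between the libraries and between both classes of induced cells. In the induced cells both medians fell with rising VIM up to the VIM median of the other induced cells, and were higher above it. MALAT1 was at 4894 CPM in induced cells up to the control VIM median. From there it was at 3391 CPM up to the control 75th percentile and 1961 CPM up to the limit. In other induced cells it was at 865 CPM up to their VIM median and 2424 CPM above it. The mitochondrial medians of these 5 ranges were 13.7%, 12.8%, 10.4%, 9.57% and 11.2%. The part of these signs in the results was not tested beyond the values given without cells below the control 5th percentiles. No cell barcode was shared by the 2 libraries.

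HRAS was modestly higher in the low-vimentin cells. Over single low-vimentin cells it ran from 32.1 (5th percentile) through 116 (median) to 260 CPM (95th percentile), and the control cells ran from 29.0 through 103 to 191 CPM, so most of the 2 ranges overlapped. The summed level was 142 CPM in the low-vimentin cells, 174 CPM in the other induced and 109 CPM in the control cells, 1.29 times control (1.25 to 1.34) and 0.813 times the other induced cells (0.784 to 0.843). The share of cells with 10 or more HRAS counts at equal depth was 22.3% among low-vimentin, 40.3% among other induced and 9.92% among control cells. Most of the HRAS rise over control was absent without cells below the control 5th percentile of mitochondrial share or MALAT1. The log2 ratio of HRAS was then 0.15 instead of 0.37 over control and −0.59 instead of −0.30 over the other induced cells. The counts do not separate the ectopic from the endogenous transcript, and no source used here says whether the ectopic one was counted at all. NRAS (52.9 CPM) in the low-vimentin cells was 1.15 times its control level (1.09 to 1.22). Of 19 measured RAS pathway components 1 was at least 1.5-fold higher than control (RASSF1) and none lower. Without the cells low in mitochondrial share or MALAT1, RASSF1 fell under 1.5-fold, with a log2 ratio of 0.46 instead of 0.69.

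Against the control cells, the low-vimentin cells stood out by neuronal genes and by fewer immediate-early transcripts, and of the mesenchymal genes mainly by some of the surface and cytoskeleton. In all 8868 genes reached 10 CPM in one of the groups and are called measured. Of these, 154 (1.74%) were higher by 2-fold or more and 26 (0.293%) lower by 2-fold or more, on a log2 scale with 1 CPM added. At the 1.5-fold limit used for gene lists, 530 (5.98%) were higher and 202 (2.28%) lower, and these shares are the background for each list. Of the genes with at least 25 CPM, the 12 highest included STMN4, IGSF21, SNCG, KLHDC8A, NFKBIE, S100A10, TAGLN3, ZNF667-AS1, DDIT3 and SCG5. These 10 were at least 2-fold higher under every one of the 16 alternative settings tried. Of these settings the changed filters cannot alter the ratio of a gene, here or below, and IGSF21, SNCG, KLHDC8A and NFKBIE lie under the 50 CPM filter. ZNF667-AS1 is antisense to ZNF667, and whether strand was used in the counting is not given, so reads of the pair cannot be told apart.

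STMN4, a stathmin of neurons that binds tubulin, led the list. Its level over single low-vimentin cells ran from 0 at the 5th percentile through a median of 35.9 to 242 CPM at the 95th percentile, and over control cells from 0 through 0 to 28.3 CPM. The summed level was 62.7 CPM against 5.47 CPM, 11.5-fold higher (10.4 to 12.6), and the other induced cells were at 57.4 CPM. Its level was thus near the same in both classes of induced cells, at 1.09 times the other induced level (1.03 to 1.16).

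Other leading genes followed the same pattern. SCG5, a chaperone of a prohormone convertase, was at 75.4 CPM in the low-vimentin, 91.0 in the other induced and 20.2 in the control cells, 3.73-fold over control (3.51 to 3.96). TAGLN3, a neuronal transgelin, was at 66.4, 82.3 and 15.9 CPM. IGSF21, an immunoglobulin-family synaptic protein, was at 28.4, 29.3 and 3.16 CPM. In these genes the low-vimentin cells lay closer to the other induced cells than to the control cells.

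SNCG and S100A10 differed from that pattern, because the other induced cells were a further 2-fold higher. The synuclein SNCG was at 30.7 CPM in the low-vimentin cells, 67.6 in the other induced and 4.86 in the control cells. S100A10, the annexin A2 partner p11, had a per-cell median of 631 CPM in the low-vimentin cells, with 23.5 CPM at the 5th and 3258 CPM at the 95th percentile, against a median of 160 CPM in control and 2558 CPM in other induced cells. Its summed level was 1162 CPM, 4.06-fold over control (4.00 to 4.12) and 0.427 times the other induced cells (0.422 to 0.432). The spread of S100A10 among the low-vimentin cells covered the middle of both other groups. With the limit at the 90th percentile of control VIM its log2 ratio over control was 1.36 instead of 2.02. DDIT3, the stress-induced transcription factor CHOP, was at 110 CPM against 29.5 CPM in control, but 1 low-vimentin cell held 21.6% of the counts, and without that cell its log2 ratio was 1.53 instead of 1.87.

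**Figure D2:**
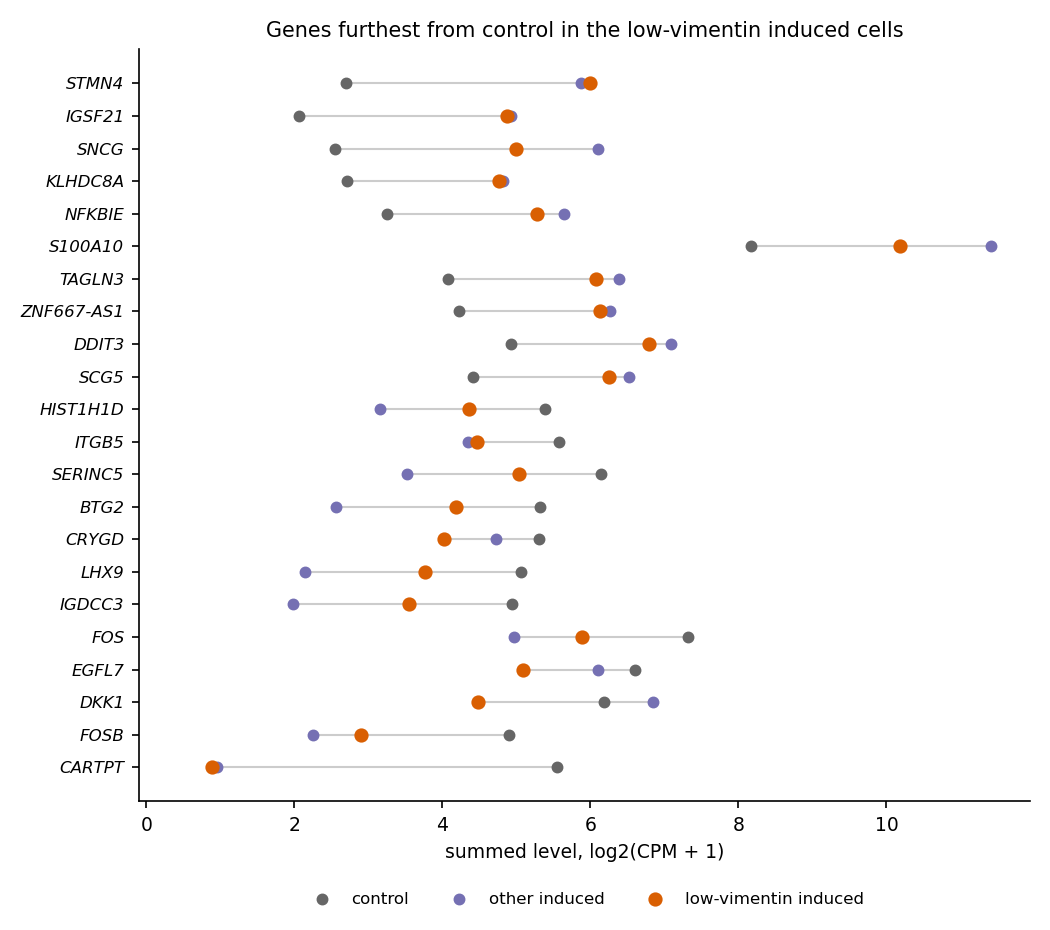
Summed level (x axis, log2(CPM + 1)) of 10 of the 12 highest and the 12 lowest genes of the low-vimentin induced cells relative to control, in the low-vimentin induced, other induced and control cells. For most of these highest genes, such as STMN4 at 62.7 and 57.4 CPM, both induced points lie together, while S100A10 and SNCG lie between control and the other induced cells.

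Of 27 measured neuronal genes 16 were at least 1.5-fold higher than control and none lower, against 5.98% and 2.28% of all genes, with a median log2 ratio of 0.67 (order-statistic interval 0.55 to 0.90) beside −0.02 over all genes measured. Examples beside STMN4 and SNCG were TUBB2A, a neuronal beta-tubulin, at 371 against 155 CPM. DCX, a microtubule protein of migrating neurons, stayed just under the limit at 151 against 101 CPM (1.49-fold), and MAP2 was nearly level at 200 against 189 CPM. At equal depth 129 of 247 low-vimentin cells (52.2%) lay above the control 95th percentile of the summed neuronal list. The median stayed between 0.61 and 0.81 under the settings tried.

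Catecholamine and chromaffin genes were mixed, with 7 of 19 higher, 2 lower and a median log2 ratio of 0.16 (−0.01 to 0.93). PCSK1N, an inhibitor of prohormone processing, was 2.57-fold higher (1035 against 402 CPM) and the neuropeptide NPY 2.05-fold higher (704 against 344 CPM). The 2 lower members were CARTPT, a neuropeptide precursor, and DLK1, a Notch-family ligand of immature chromaffin cells, at 850 against 1370 CPM. CARTPT stood at 0.84 CPM against 45.6 CPM in control, but 3 control cells held at least 50% of the control counts, and its per-cell median was 0 in all groups. Adrenergic transcription factors were close to control, with 1 of 20 higher (ISL1, 1.52-fold), none lower and a median of 0.11 (−0.06 to 0.42).

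Mesenchymal surface and cytoskeletal genes were higher in part: 11 of 25 higher, 1 lower, median log2 ratio 0.36 (−0.21 to 0.69). TMSB4X, an actin-sequestering thymosin, was at 759 against 310 CPM, whereas CALD1, an actin-binding caldesmon, was at 90.3 against 147 CPM. Of 7 measured matrix genes 2 were higher (FN1 at 25.2 against 14.2 CPM and TIMP1 at 160 against 97.1 CPM), 1 was lower (BGN) and the median was −0.11 (−0.64 to 0.79). One low-vimentin cell held 14.0% of the TIMP1 counts, and without that cell TIMP1 was at 138 CPM, under 1.5-fold. Of 17 measured mesenchymal transcription factors none was higher and 1 lower (AEBP1), with a median of −0.07 (−0.19 to 0.09). The signs of the matrix and factor medians turned under other settings, so neither has a direction. Of 6 measured YAP and TAZ targets 2 were higher and none lower, and of 10 other intermediate filament genes 3 were higher and 1 lower, with the neuronal filaments NEFL at 648 against 364 CPM and PRPH at 503 against 309 CPM.

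MAPK output was higher in 5 of 14 measured genes and lower in 1, with a median log2 ratio of 0.22 (−0.13 to 0.99). DUSP4 was at 269 CPM in the low-vimentin, 237 in the other induced and 136 in the control cells. DUSP6 was at 13.1, 25.9 and 4.42 CPM, 2.97-fold over control (2.59 to 3.40), and HBEGF at 10.8, 31.5 and 4.17 CPM, 2.59-fold over control. EGR1, also an immediate-early gene, was the lower member at 88.8 against 146 CPM.

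Immediate-early and AP-1 genes were lower in 6 of 12 and higher in none, with a median log2 ratio of −0.62 (−1.13 to 0.10). The per-cell level of FOS ran from 0 through 33.2 to 254 CPM in the low-vimentin cells and from 0 through 95.8 to 555 CPM in the control cells (5th percentile, median, 95th percentile). Its summed level was 58.3 CPM, 0.369 times control (0.352 to 0.387), and the other induced cells were lower still at 30.4 CPM. FOSB was at 6.45, 3.75 and 28.9 CPM in low-vimentin, other induced and control cells. BTG2, an antiproliferative early-response gene, was at 17.2 against 38.7 CPM in control. The remaining low genes at this end were DKK1, EGFL7, IGDCC3, LHX9, CRYGD, SERINC5, ITGB5 and HIST1H1D. The lower end depended more on the settings: 5 of its 12 genes (CARTPT, FOSB, EGFL7, FOS and IGDCC3) were at least 2-fold lower under every setting and 7 were not.

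S and G2/M genes were moderately lower than in control. None of 38 S-phase genes was higher and 5 were lower, with a median log2 ratio of −0.39 (−0.47 to −0.34), and none of 52 G2 and M genes was higher and 7 were lower, with a median of −0.42 (−0.46 to −0.36). HELLS, a chromatin remodeller of replicating cells, was at 86.3 against 143 CPM. Of 18 genes of the ATF4 and amino acid response 6 were higher and none lower (median 0.38, 0.08 to 0.64), with TRIB3 at 43.5 against 12.4 CPM. One low-vimentin cell held 30.7% of the TRIB3 counts. Of 12 NRF2 antioxidant genes 4 were higher and none lower (median 0.36, 0.00 to 0.64), with HMOX1 at 12.1 against 4.93 CPM. Of 9 measured CDK inhibitor and senescence-associated genes 2 were higher and 1 lower, with the inhibitors CDKN2D at 54.1 against 30.0 CPM and CDKN1A at 33.9 against 21.0 CPM.

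Against the other induced cells, the low-vimentin cells had more of most cell cycle and of some adrenergic transcripts, and less of most matrix and mesenchymal surface and cytoskeletal ones. Here 8903 genes were measured, 135 (1.52%) of them 2-fold or more higher and 214 (2.4%) 2-fold or more lower. At 1.5-fold 652 (7.32%) were higher and 571 (6.41%) lower. This balance depends on scaling: the higher genes were 38.7% of the 2-fold calls with total counts, 20.7% with TMM scaling and 16.0% with DESeq2 size factors, as the median log2 ratio of all genes moved from 0.04 to −0.13 and −0.18. Both groups come from 1 library and were divided by VIM, so genes that vary together with VIM differ here by construction of the groups.

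The 12 highest genes with at least 25 CPM included IGF2, HGF, DLK1, CHGA, RGS16, DBH, ASPM, DTL, SERINC5, CADM2 and HMGB2. Of the 12, 9 stayed at least 2-fold higher under every setting tried. ASPM, SERINC5 and HMGB2 did not, with log2 ratios of 0.35, 0.96 and 0.82 in cells scored as G1. For CHGA the per-cell median was 699 CPM in the low-vimentin cells (5th to 95th percentile 101 to 2055), 140 CPM in the other induced (0 to 629) and 919 CPM in the control cells (129 to 2345). Its summed level was 3.23-fold that of the other induced cells (3.16 to 3.31) and 0.747 times control (0.736 to 0.757). The median low-vimentin cell thus exceeded the 95th percentile of the other induced cells, and the range overlapped that of control.

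DBH, the enzyme that converts dopamine to noradrenaline, was at 101, 31.6 and 95.4 CPM in low-vimentin, other induced and control cells. RGS16, a regulator of G-protein signalling, was at 343, 108 and 345 CPM. DLK1 was at 850, 184 and 1370 CPM, and the growth factor IGF2 at 39.7, 5.30 and 64.6 CPM, so that both lay between the groups and nearer control. HGF, the ligand of the MET receptor, stood furthest above control of these genes, at 25.04, 4.45 and 7.59 CPM. It was 5.62-fold over the other induced (4.83 to 6.58) and 3.30-fold over control (2.98 to 3.65). DBH and CADM2 (27.9, 9.33 and 21.5 CPM) were also highest in the low-vimentin cells, but by less over control.

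Of 20 adrenergic transcription factors 8 were at least 1.5-fold higher than in the other induced cells and 1 (HEY1) lower, with a median log2 ratio of 0.52 (0.12 to 0.76). Of 18 catecholamine and chromaffin genes 8 were higher and 2 (NPY and VGF) lower, with a median of 0.42 (0.08 to 0.99). These medians stayed above 0 under all settings tried. NPY was at 704 CPM against 1785 CPM and VGF, a secreted neuropeptide precursor, at 257 against 465 CPM. Few neuronal genes differed: 1 of 27 was higher (DCX, 1.70-fold), 1 lower (SNCG) and the median was 0.02 (−0.24 to 0.20), with a sign that turned under 8 settings.

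The 12 lowest genes included TM4SF1, TFPI2, ANXA1, EDN1, LRRC17, ACTA2, MGP, PRSS23, PLAUR, CAVIN1 and LUM. All of these except ANXA1 stayed at least 2-fold lower under every setting tried. ACTA2, smooth muscle actin, had a per-cell median of 0 in the low-vimentin cells (95th percentile 38.9 CPM) and 11.9 CPM in the other induced cells (95th percentile 640 CPM). Its summed level was 9.07 CPM against 115 CPM, with 4.07 CPM in control, 0.0789 times the other induced cells (0.0700 to 0.0886). TM4SF1, a tetraspanin-like membrane protein, was at 0.90 CPM against 52.9 CPM and at 0.70 CPM in control. PLAUR, the urokinase receptor, was at 3.28 CPM against 30.5 CPM and 2.76 CPM in control. EDN1, the vasoconstrictor endothelin, was at 3.77 CPM against 60.8 CPM and 7.19 CPM in control. Relative to control the low-vimentin cells were thus near level for PLAUR (1.19 times, 0.944 to 1.49) and TM4SF1 (1.29 times, 0.807 to 2.01), higher for ACTA2 (2.23-fold) and lower for EDN1 (0.524 times), although all 4 were far below the other induced cells. These control levels rest on few cells, as 2 control cells held at least 50% of the TM4SF1 counts and 3 of the EDN1 counts. The direction over control turned for EDN1 at the 99th percentile limit, against control cells under the VIM limit and without the ANXA1 or ESAM cells (log2 ratios of 1.31, 1.46 and 0.75 instead of −0.78), and for ACTA2 in cells scored as G1 (−0.30 instead of 0.99).

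Several of these low genes came from few other induced cells. ANXA1 was at 1.48 CPM in the low-vimentin, 34.7 in the other induced and 0.09 in the control cells, but 6 of the 371 other induced cells held at least 50% of its counts there. At least 5 counts of ANXA1 or of the endothelial adhesion gene ESAM were found in 4 low-vimentin, 65 other induced and 16 control cells. Without all of these cells the log2 ratio of ANXA1 was −0.56 instead of −3.85, the 2-fold lower genes numbered 154 instead of 214 and the matrix median was −1.14 instead of −1.83. For TFPI2 6 cells, for LRRC17 8 cells and for EDN1 16 cells held at least 50% of the counts of the other induced cells.

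Of 15 measured matrix genes 12 were at least 1.5-fold lower than in the other induced cells and none higher, with a median log2 ratio of −1.83 (−2.39 to −1.17), against 6.41% of all genes lower. FN1, fibronectin, was at 25.2 against 118 CPM and TIMP1, a metalloproteinase inhibitor, at 160 against 469 CPM. Of 30 mesenchymal surface and cytoskeletal genes 24 were lower and none higher, with a median of −0.84 (−1.18 to −0.73). CD9 (224 against 208 CPM) and S100A4 (133 against 132 CPM) were level. Of 21 mesenchymal transcription factors 8 were lower and none higher (median −0.27, −0.83 to −0.02), among them IFI16 at 6.96 against 37.1 CPM and SOX9 at 4.70 against 17.1 CPM, while TWIST1 was at 156 against 127 CPM. The factor median turned to 0.27 when only genes of at least 50 CPM were kept. Of 17 MAPK output genes 7 were lower and none higher (median −0.54, −1.01 to −0.13), and of 19 RAS pathway components 4 were lower and none higher. Of 10 YAP and TAZ targets 4 were lower and none higher, with CCN2 at 0.63 against 16.7 CPM. Of 12 NRF2 genes 5 were lower and none higher (median −0.48, −0.76 to −0.24), with HMOX1 at 12.1 against 64.3 CPM. One other induced cell held 65.8% of the HMOX1 counts, and without it the log2 ratio was −0.82 instead of −2.32. Of 12 CDK inhibitor and senescence-associated genes 6 were lower and 1 (LMNB1) higher, with IGFBP3 at 16.3 against 48.8 CPM. Of 19 ATF4 genes 4 were lower and 1 higher, of 11 other intermediate filament genes 3 were lower and 1 higher, and of 13 immediate-early genes 3 were higher and 2 lower.

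**Figure D3:**
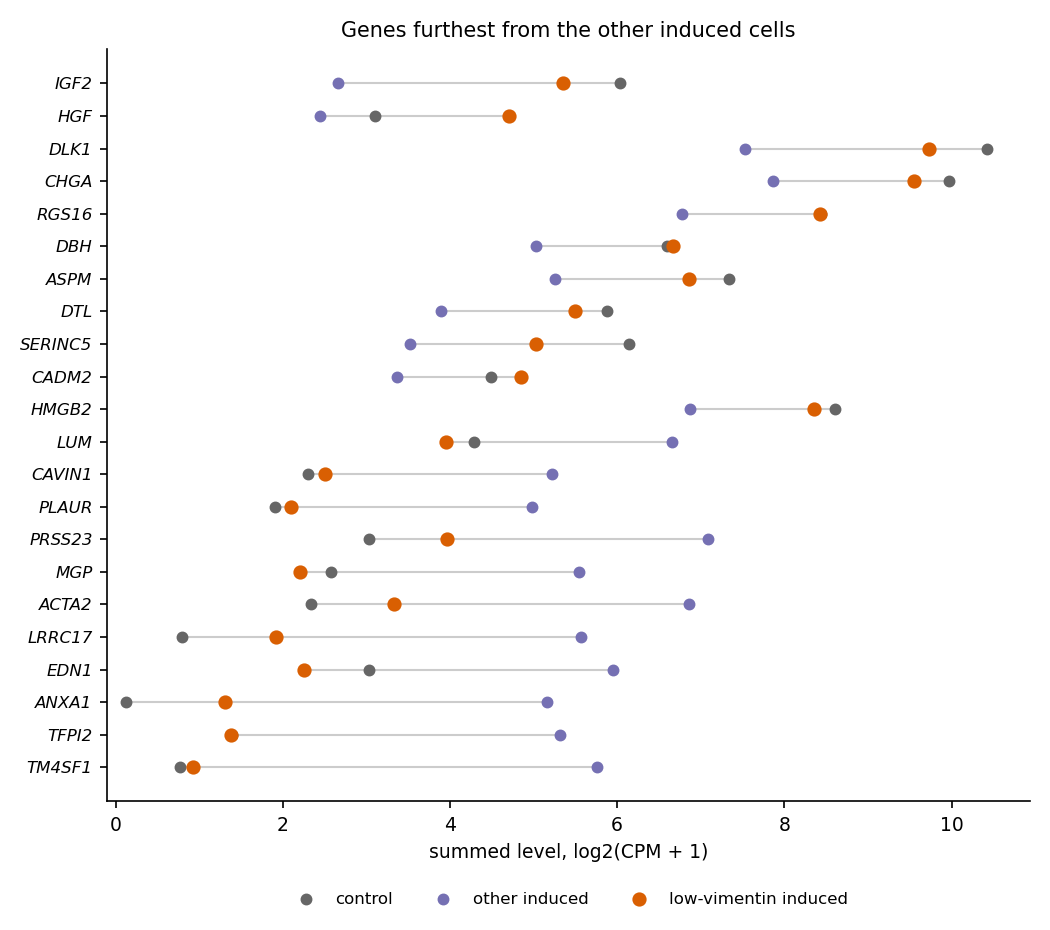
Summed level (x axis, log2(CPM + 1)) of 11 of the 12 highest and 11 of the 12 lowest genes of the low-vimentin induced cells relative to the other induced cells, in the low-vimentin induced, other induced and control cells. For RGS16 and DBH the low-vimentin and control points nearly coincide, as they do at the low end for TM4SF1 (0.90 and 0.70 CPM) and PLAUR (3.28 and 2.76 CPM).

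Cell cycle genes were higher than in the other induced cells. Of 37 S-phase genes 31 were at least 1.5-fold higher and none lower, with a median log2 ratio of 0.87 (0.77 to 1.01), and of 51 G2 and M genes 40 were higher and none lower, with a median of 0.75 (0.66 to 0.82). UHRF1, which maintains DNA methylation at replication, was at 34.9 against 13.2 CPM, and the mitotic kinase NEK2 at 38.8 against 15.3 CPM, with 43.1 CPM in control. At equal depth the summed S-phase list had a median of 15.3 counts per 10000 counts in 247 low-vimentin cells, 6.04 in 315 other induced and 25.1 in 766 control cells. The G2 and M list had medians of 36.0, 17.2 and 56.5. Within the low-vimentin cells the middle 50% of cells spanned 6.23 to 29.6 for the S-phase list, close to the medians of both other groups. When only cells scored as G1 were compared, the medians over the other induced cells were 0.41 for S phase and 0.25 for G2 and M phase. G1 was scored from these same lists, so cells low in them were selected and smaller medians are built in.

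**Figure D4:**
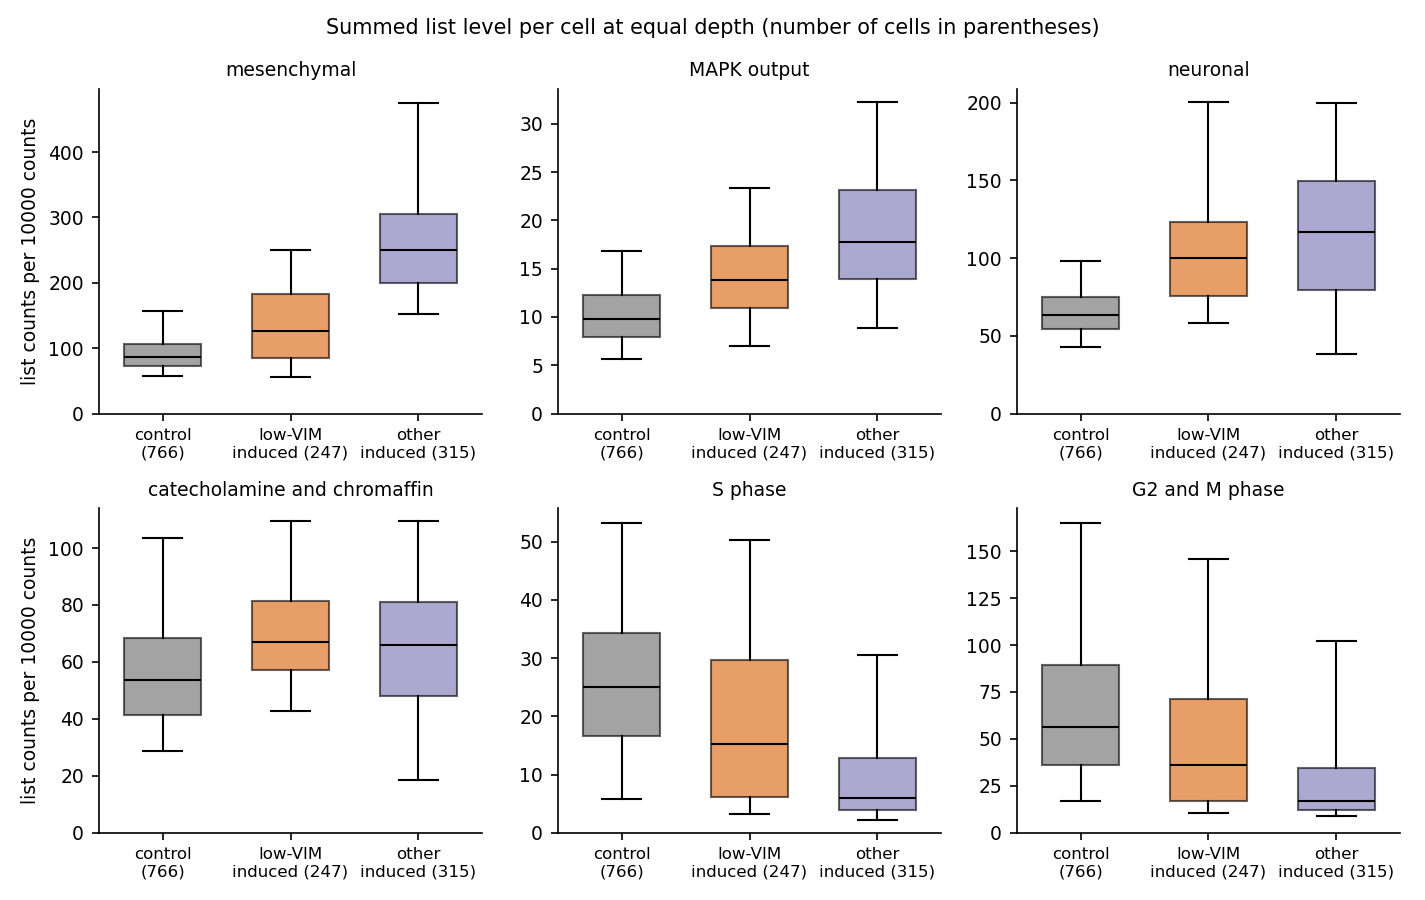
Summed counts of 6 gene lists per 10000 counts (y axis) in single cells thinned to 53000 counts, for control (766 cells), low-vimentin induced (247 cells) and other induced cells (315 cells). Boxes span the 25th to 75th percentile with the median as a line, and whiskers the 5th to 95th percentile. The low-vimentin median lies between the other 2 groups for all lists plotted except the catecholamine list, where it is the highest (67.2 against 53.6 in control and 65.8 in the other induced cells). It was also the highest for the adrenergic factors, which are not plotted (41.5 against 35.1 and 30.2).

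The low-vimentin cells varied widely among themselves. At equal depth the summed mesenchymal lists had a median of 126 counts per 10000 in them, with 56.3 at the 5th and 257 at the 95th percentile, against medians of 250 in the other induced and 86.9 in the control cells. Although chosen for low VIM, 87 of 247 cells (35.2%, 29.3% to 41.5%) lay above the control 95th percentile of these lists, compared with 288 of 315 other induced cells (91.4%). For MAPK output 69 of 247 (27.9%) and 171 of 315 (54.3%) lay above it. Of the mesenchymal, MAPK output and neuronal lists, 82 of 247 low-vimentin cells (33.2%, 27.4% to 39.4%) exceeded the control 95th percentile in none and 23 (9.31%) in all 3. Among the other induced cells 10 of 315 (3.17%) exceeded it in none, and among the control cells 670 of 766 (87.5%).

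To follow this variation, both libraries were divided at the same VIM levels, a division chosen after the data had been seen, as were the genes followed across it. The low-vimentin cells comprised 44 cells at or below the control median of 23.4 CPM, 77 cells from there to the control 75th percentile of 122 CPM, and 174 cells from there to the limit, and the control cells of the same ranges numbered 478, 239 and 191. S100A10 was at 164, 427 and 1566 CPM across these 3 ranges of induced cells and at 154, 243 and 469 CPM across those of control cells. In the third range S100A10 was thus 3.34-fold higher in the induced cells (3.27 to 3.42). VIM itself was not equal within the ranges: the induced cells had 511 CPM and the control cells 362 CPM in the third, and 10.3 and 6.48 CPM in the lowest. The induced and control cells of the third range also differed in median counts per cell (125870 and 98454), mitochondrial share (10.4% and 13.6%) and MALAT1 (1961 and 2479 CPM), whose part in these ratios was not tested. The mesenchymal lists summed to 7849, 9801 and 16922 CPM in the induced and to 8071, 9078 and 11072 CPM in the control cells. HRAS was at 103, 114 and 157 CPM in the induced cells and at 108, 112 and 109 CPM in the control cells, a ratio of 0.953 (0.856 to 1.06) in the lowest range and 1.43 (1.36 to 1.51) in the third. Among cells of the lowest range scored as G1 (10 induced and 70 control cells), HRAS and S100A10 were above control, with log2 ratios of 1.08 and 1.62 instead of −0.07 and 0.09. CHGA declined with VIM in both libraries, from 1236 through 1154 to 538 CPM in the induced and from 1198 through 1009 to 733 CPM in the control cells. IFI16, an interferon-inducible DNA sensor, was at 0, 1.52 and 9.88 CPM in the induced cells and at 0, 0.04 and 0.10 CPM in the control cells. DDIT3 was at 38.1, 38.4 and 145 CPM, so its difference from control in this class came mainly from the third range.

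Other genes were set apart from control in all 3 ranges. STMN4 was at 46.0, 56.7 and 67.5 CPM in the induced cells of the 3 ranges and at 3.71, 5.06 and 7.28 CPM in the control cells. SCG5 was at 89.2, 74.6 and 73.4 CPM against 21.6, 19.1 and 18.7 CPM. TBX3, a T-box repressor, was at 254, 218 and 178 CPM against 90.5, 86.3 and 79.4 CPM. NTRK3, the neurotrophin-3 receptor, was at 28.9, 17.9 and 18.0 CPM against 6.66, 5.45 and 4.42 CPM. FOS was at 59.8, 80.9 and 50.7 CPM against 163, 152 and 162 CPM. These levels differed between the libraries by more than counting error in each range. Counting error leaves out the spread between cells. In the lowest range the share of cells with an NTRK3 count differed little between the libraries, as given below. HGF was at 65.2, 43.8 and 12.3 CPM against 10.8, 5.99 and 3.87 CPM, lower at higher VIM in both libraries.

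**Figure D5:**
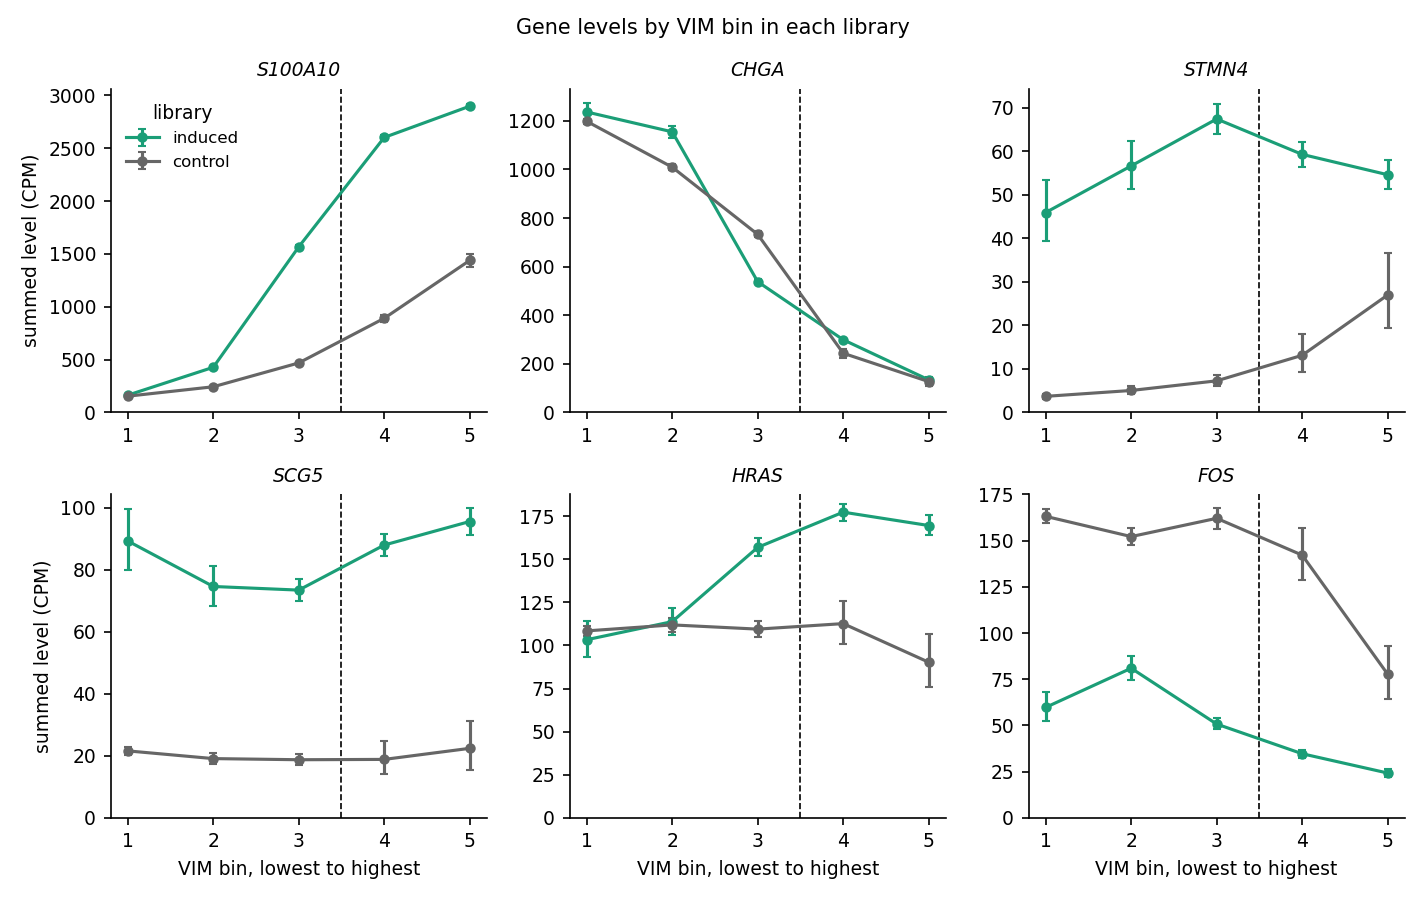
Summed level in CPM (y axis) of 6 genes in cells of the induced and control libraries divided into 5 ranges of VIM (x axis), where ranges 1 to 3 left of the dashed line hold the low-vimentin cells and ranges 4 and 5 the cells above the limit. Bars are 95% Poisson intervals, and control ranges 4 and 5 hold 30 and 18 cells. HRAS and S100A10 start near the control level in range 1 (103 against 108 CPM and 164 against 154 CPM), though not among its G1 cells, while STMN4 and SCG5 are above control and FOS below it in every range.

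The 44 induced cells of the lowest range were then compared with the 478 control cells of that range across all genes. At the 2-fold limit 98 (1.08%) of 9113 measured genes were higher and 55 (0.604%) lower, and at 1.5-fold 473 (5.19%) and 262 (2.88%). Mesenchymal surface and cytoskeletal genes showed no shift here, with 1 of 25 higher, 1 lower and a median log2 ratio of −0.02 (−0.24 to 0.09), and of 11 MAPK output genes 2 were higher and 2 lower. Of 25 neuronal genes 9 were higher and 1 lower (median 0.34, 0.19 to 0.73), and of 21 adrenergic transcription factors 7 were higher and none lower (median 0.42, 0.27 to 0.64), against a median of 0.04 over all genes. Of 12 immediate-early genes 7 were lower and none higher (median −0.67, −0.997 to 0.30). None of 39 S-phase genes passed 1.5-fold, whereas 11 of 52 G2 and M genes were higher and none lower (median 0.44, 0.38 to 0.50). The mitochondrial share had a median of 13.7% in these 44 cells and 13.1% in the 478 control cells, and MALAT1 a median of 4894 and 3551 CPM.

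Of the 10 genes named as highest over control among all low-vimentin cells, STMN4, SCG5, ZNF667-AS1, TAGLN3 and IGSF21 were still 2-fold higher in this lowest range. SNCG (log2 ratio 0.77), KLHDC8A (0.999), NFKBIE (0.82), DDIT3 (0.87) and S100A10 (0.09) were not. For IGSF21 and TAGLN3 1 cell held 66.7% and 35.8% of the counts of the 44 cells.

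The 12 highest genes of at least 25 CPM in this comparison were STMN4, HGF, SCG5, NTRK3, CRH, MIAT, VIP, ZNF462, TBX3, AQP10, PDE1C and SMIM18. TBX3 had a count in all 44 induced cells, with 11.3, 251 and 578 CPM as lowest, median and highest value, against 0, 81.1 and 488 CPM in the control cells, a ratio of 2.81 (2.61 to 3.02). STMN4 had a median of 23.2 CPM and a highest value of 457 CPM in the induced cells, and a median of 0 and a highest value of 276 CPM in the control cells. At equal depth it had a count in 17 of 32 induced cells (53.1%, 34.7% to 70.9%) and 33 of 363 control cells (9.09%, 6.34% to 12.5%). HGF had a count in 19 of 32 (59.4%) and 104 of 363 cells (28.7%), and SCG5 in 25 of 32 (78.1%) and 175 of 363 (48.2%). NTRK3 had one in 31.3% and 24.0%, so its difference was small as a share of cells. CRH, corticotropin-releasing hormone, did not hold as a difference between cells, since 1 cell held 43.1% of its counts in the induced and 1 cell 42.9% in the control group, and its share of cells was 37.5% against 30.3%. The vasoactive peptide VIP likewise had counts in 43.8% and 40.5% of cells. S100A10 was even lower by its per-cell median, 67.3 against 119 CPM, although the summed levels were alike, and 1 induced cell held 32.8% of the counts. The 12 lowest genes were CRYGD, CRIP1, FOSB, IGFBP7, CMTM8, APOC1, EGFL7, PMP22, FOS, ARC, OPRM1 and TPST2. ARC, an activity-regulated cytoskeletal gene, was at 24.6 against 64.0 CPM, and CRYGD, a gamma crystallin, at 6.49 against 38.9 CPM.

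With these 44 cells limited to the 40, and the 478 control cells to the 440, that lay above the control 5th percentiles of mitochondrial share and MALAT1, the log2 ratios over control were 3.18 for STMN4, 1.63 for SCG5, 1.44 for TBX3 and −1.50 for FOS, against 3.32, 2.00, 1.48 and −1.43 with all of them. When the range was defined on thinned counts instead (41 induced and 386 control cells) they were 3.00, 1.76, 1.32 and −1.64, and in G1 cells 4.02, 2.25, 1.44 and −1.68. Other genes did not keep their values. VIP was at 0.81 on thinned counts and 0.39 in G1 cells instead of 1.65, and CRH was at 0.66 as a mean of per-cell levels and −1.23 in G1 cells instead of 1.90. Over all 295 low-vimentin cells the same limit left 213 cells and 871 control cells, and 105 genes were 2-fold higher than control and 26 lower. Among the genes named above, the log2 ratio over control then fell to 1.77 for SNCG (from 2.44), 2.20 for IGSF21 (from 2.82), 0.53 for HBEGF (from 1.19) and 0.94 for TRIB3 (from 1.73). For HRAS it fell to 0.15 (from 0.37). NPY (0.75), HMOX1 (0.90), TMSB4X (0.998), BTG2 (−0.96), SERINC5 (−0.86), ITGB5 (−0.999) and HIST1H1D (−0.72) were no longer 2-fold from control. Over the other induced cells the same limit gave −0.96 for HMOX1 (from −2.32) and −2.09 for ANXA1 (from −3.85), and larger ratios for DLK1 (2.99 from 2.20), HGF (2.84 from 2.26), HMGB2 (2.11 from 1.48) and NEK2 (2.08 from 1.29). It also gave lower ratios for EDN1 (−4.51 from −3.70), LRRC17 (−4.83 from −3.66), ACTA2 (−4.32 from −3.53) and IFI16 (−2.99 from −2.26). The part of RNA quality, depth and cycle stage in the remaining differences was not tested, and each library was prepared from its own culture, so library and treatment cannot be told apart.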

How the data were processed

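Single-cell 3' RNA of 1 induced and 1 control library was analysed. The authors deposited a table of whole-number counts (36027 genes by 1622 cells), with the library, total count and percent of mitochondrial counts of each cell, per the file headers; kallisto and bustools are named in the submitters' processing notes, and none of the sources used here gives their versions, the genome build or the cell filters. No deposited cell had over 20.0% mitochondrial counts. Doublets were not called. Cell annotations were joined by order, checked against the library suffix of each barcode, and column sums differed from the deposited totals by at most 192 counts.

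Counts were summed over the cells of a group and divided by the group's total (CPM). A gene was measured at 10 CPM in either group, and the log2 ratio used a pseudocount of 1 CPM, so that changes of low genes are understated. Ratios have exact conditional, shares exact Clopper-Pearson and list medians order-statistic intervals at 95%. For per-cell lists each cell was thinned to 53000 counts, which left out 48 low-vimentin, 56 other induced and 190 control cells. The named genes were VIM, HRAS, NRAS, CHGA and PHOX2A, the 12 highest and 12 lowest of each comparison at 25 CPM, and the 2 highest and lowest of each list; a few genes named by this rule are not reported here. The low-vimentin rule and the gene lists were chosen with earlier results of these data known, and the mesenchymal per-cell list joins the surface, matrix and factor lists. Fold calls were checked on counts simulated from pooled levels with counting error only, so this check does not cover variation between cells. Alternatives were the VIM limit, scaling (edgeR 4.0.16 TMM, DESeq2 1.42.0 size factors), thinning, a limit on mitochondrial percent and MALAT1, G1 cells (scanpy 1.11.5), pseudocounts and filters. The G1 call was scored from the S-phase and the G2 and M lists. Python 3.11.15, numpy 2.4.6, scipy 1.17.1 and pandas 2.3.3 were used.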

Additional observations from a re-analysis of the deposited data

How the results depend on the processing

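The values below are those that moved. With the VIM limit at the 90th percentile of control (216 cells), 94 genes were 2-fold higher than control and 218 higher than the other induced cells, and the cell cycle medians were −0.18 (S) and −0.29 (G2 and M) over control and 1.05 (S) over the other induced cells. At the 99th percentile (543 cells), 290 genes were higher and 80 lower than control, and 204 higher and 466 lower than the other induced cells. The medians there were −0.79 (S) and −0.73 (G2 and M) over control, and −0.96 (mesenchymal factors), 0.52 (neuronal), 0.65 (S) and 0.56 (G2 and M) over the other induced cells. With TMM 80 genes were higher than in the other induced cells, with medians of 0.72 (S) and 0.58 (G2 and M); with DESeq2 size factors 68 were higher and 358 lower, with 0.67 and 0.53. Without ribosomal and mitochondrial counts in the totals 47 genes were lower than control and the G2 and M median was −0.48. As a mean of per-cell CPM 205 genes were higher than in the other induced cells.

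Limiting mitochondrial percent and MALAT1, the S median over control was −0.27, and 214 genes were higher and 345 lower than in the other induced cells, with 1.03 (S) and 0.99 (G2 and M). With G1 cells only, 79 genes were lower than control, with medians of −0.27 (S) and −0.35 (G2 and M), and 63 higher than in the other induced cells, with 0.41 and 0.25. As G1 was scored from the S and the G2 and M lists, these medians depend on that selection. A pseudocount of 5 CPM gave 12 genes lower than control and 64 higher than in the other induced cells, with 0.74 (S) and 0.65 (G2 and M). A filter of 1 count gave 275 higher and 78 lower than control, and 216 and 453 against the other induced cells. A filter of 50 CPM gave 55 and 6, and 41 and 56, and a mesenchymal factor median of 0.27. Without cells with at least 5 ANXA1 or ESAM counts, chosen after seeing the data, the medians over the other induced cells were −1.14 (matrix) and 0.65 (G2 and M).

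For the cells at or below the control VIM median, a comparison and settings added after seeing the data, 103 genes were lower after thinning and 90 without ribosomal and mitochondrial counts. With a pseudocount of 5 CPM 44 were higher and 28 lower, and with a filter of 50 CPM 21 and 9. With G1 cells only (10 induced, 70 control) 835 were higher and 367 lower.

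Some named genes turned sign. Over control, EDN1 was 1.31 and ESAM 0.87 at the 99th percentile, 1.46 and 0.18 against control cells under the limit, and 0.75 and 0.16 without the ANXA1 or ESAM cells, FSTL1 was 0.26 at the 99th percentile, and ACTA2 was −0.30 in G1 cells. Over the other induced cells, SNCG was 0.19, CRYGD 0.26, HMOX1 0.39 and MT-ATP8 −0.10 at the 99th percentile, and HIST1H1D −0.16 and KIF11 −0.047 in G1 cells. Apart from the changed filters and cell sets themselves, the cause was not tested. In all, 312 of the alternative values of the counts and list medians moved little and 60 moved. No paired analysis was possible because each group is 1 library, and none can be left out. Values without the cell that held most counts of a gene were also added after seeing the data. The lowest VIM range holds 44 induced cells, 10 of them in G1, which limits its precision.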
